A study of Rattus norvegicus with 8 samples.

Results

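The Zfp genes are the rat genes whose symbol is Zfp, for zinc finger protein, followed by a number. Of 30560 gene identifiers in the deposited table, 231 were protein_coding genes named in this way, and 196 of them had at least 50 raw counts in each of the 8 libraries in the transcript with the highest summed count. These 196 genes, with 195 symbols because Zfp84 stands on 2 identifiers, were the members examined here. The other 35 were below the minimum in at least 1 library, and 25 further Zfp symbols with letters after the number, such as Zfp36l1, were not counted as members. The thyroids of male Wistar rats in 4 groups, with 2 rats in each group, were examined by RNA-Seq. At the age of 1 week, 1w4Gy rats received X-rays to the neck at a dose of 4 Gy, and 1w0Gy rats a sham treatment. At the age of 4 months, 4m4Gy rats received the same dose and 4m0Gy rats the sham treatment. The glands were collected some 8 weeks after treatment. The 1w and 4m groups therefore differed both in the age at treatment and in the age at which the thyroid was taken. The 2 RNAs of each group were the better preserved ones of a larger group of rats.

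Most zinc finger proteins of this family carry a row of C2H2 fingers, small loops held by a zinc ion that read the bases of DNA. Many of them also carry a KRAB domain, which binds the corepressor Trim28 and through it the histone methyltransferase Setdb1, and these proteins are known above all for silencing transposable elements. KRAB zinc finger genes multiplied by local duplication and often lie next to each other in the genome. The name Zfp covers other kinds of protein as well. Zfp36 (tristetraprolin) is a CCCH finger protein that binds AU-rich elements and hastens the decay of mRNAs of cytokines and early response genes, Zfp622 takes part in the maturation of the large ribosomal subunit, Zfp106 binds RNA, and Zfp521 and Zfp423 are cofactors that set the fate of mesenchymal and adipocyte precursors.

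Total counts on genes ranged from 14835406 to 18138113 per library, and the members took 68732 to 83027 of these, which was 0.435% to 0.471% of a library. The libraries held thyroid RNA, with thyroglobulin (Tg) at 182568 to 216486 CPM (counts scaled to library size with TMM factors). The p53 target Cdkn1a measured 14.4 to 17.4 CPM in the 4 sham libraries and 38.1 to 46.6 CPM in the 4 irradiated ones. RNA of other cells was present in unequal amounts. The summed level of 6 fibroblast markers was 2231 to 3061 CPM in the 1w libraries and 847 to 1148 CPM in the 4m libraries, and 8 adipocyte markers summed to 312 to 582 and 165 to 390 CPM. The summed parathyroid markers were 1942 to 5484 CPM in 7 libraries and 344 CPM in the second 4m4Gy library. The C cell markers summed to 3381 to 8444 CPM, the skeletal muscle markers to 7.35 to 95.8 CPM, the lymphocyte markers to 1.81 to 5.25 CPM, and the endothelial markers to 526 to 705 CPM. Fewer cells of a type and less RNA per cell cannot be told apart in such samples.

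The Zfp genes were expressed at low levels. Scaled per transcript length as TPM, their mean over the 8 libraries ranged from 0.775 to 25.7 with a median of 4.06 TPM, and no member exceeded 100 TPM. The other protein_coding genes that met the same count minimum had a median of 9.92 TPM, and 171 of the 196 members (87.2%) were below it. The 5 members with the highest mean TPM were Zfp36 at 25.7, Zfp326 at 20.6, Zfp330 at 18.8, Zfp266 at 18.5, and Zfp91 at 18.0 TPM. Zfp326 belongs to a complex that couples transcription to splicing, Zfp330 is a nucleolar protein, and Zfp91 is a ubiquitin ligase of the NF-kB pathway. At the lower end, the members just above the minimum were Zfp174, Zfp458, and Zfp641, with 52, 54, and 56 counts in their lowest library. Zfp141 and Zfp39 with 45 counts and Zfp704 with 44 counts in their lowest library were just below it and were not members.

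The levels of most members varied little between the libraries. The ratio of the highest to the lowest CPM over the 8 libraries had a median of 1.29 and was under 1.5 in 165 of 196 members (84.2%). Only Zfp366 exceeded 2, with a ratio of 2.10. Among the 11182 other protein_coding genes with the same count minimum the median ratio was 1.3, 75% were under 1.5, and 6.75% exceeded 2. Weighted to the members' classes of mean count, these others had a median of 1.38, with 66.6% under 1.5 and 8.94% over 2. The spread within groups was similar, as the median SD between the 2 libraries of a group was 0.11 on the log2 scale in the members and also 0.11 in the others before that weighting, and 0.13 after it. These are descriptions of the same 8 libraries and were not tested. The plot of the highest over the lowest level shows this distribution.

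**Figure D1:**
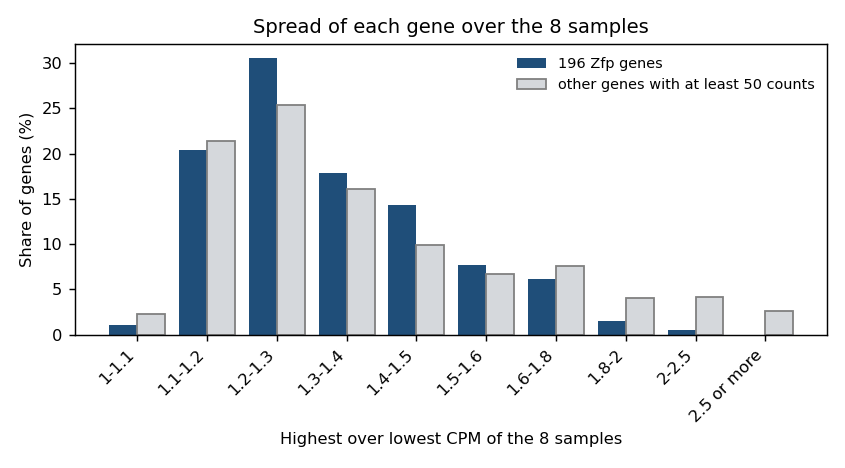
Share of genes (vertical axis, in percent) by the ratio of the highest to the lowest CPM over the 8 samples (horizontal axis), for the 196 Zfp genes (filled bars) and for the 11182 other protein_coding genes with at least 50 counts in each library (grey bars). The Zfp genes are concentrated below 1.5, and 1 of them, Zfp366, lies above 2.

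The promoters of 4 of the members the comparisons turn on are shown for their composition, and those of Zfp622 and Zfp521 are not shown. Of the 196 members, 158 had a promoter entry in the RefSeq table of assembly GRCr8, and the 250 bases before the start of the gene were read on the gene's own strand. The median number of CpG dinucleotides was 14 in the members and 17 in 8430 other protein_coding genes with the same count minimum, and the median GC content was 57% and 60.8%. The GC box, searched as GGGCGG on both strands, was found in 72 member promoters (45.6%), in 61.3% of those others, and in 40.3% of all 19005 promoters. CCAAT was found in 42.4% of the member promoters and in 35.6% of the others, and CCGGAAG, the core of ETS sites, in 16.5% and 16.1%. TATAAA was found in 7.59% and 5.72%, CACGTG in 5.7% and 8.27%, and TGACTCA, the AP-1 site, in 3.8% and 2.91%, all on both strands. The 4 promoters follow 5′ to 3′ in GRCr8, with GC boxes in capitals. Zfp786 lies at chr4:78171803-78172052 on the minus strand, Zfp106 at chr3:127964255-127964504 on the minus strand, Zfp366 at chr2:32312462-32312711 on the plus strand, and Zfp36 at chr1:92799109-92799358 on the minus strand. Zfp106 and Zfp36 each hold 2 GC boxes, while these letters are not in the windows of Zfp786 and Zfp366.
Zfp786: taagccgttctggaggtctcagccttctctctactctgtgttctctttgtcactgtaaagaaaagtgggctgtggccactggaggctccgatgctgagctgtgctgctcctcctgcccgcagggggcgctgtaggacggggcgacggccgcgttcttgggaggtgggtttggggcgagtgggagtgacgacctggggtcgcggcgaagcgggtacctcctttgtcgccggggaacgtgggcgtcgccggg
Zfp106: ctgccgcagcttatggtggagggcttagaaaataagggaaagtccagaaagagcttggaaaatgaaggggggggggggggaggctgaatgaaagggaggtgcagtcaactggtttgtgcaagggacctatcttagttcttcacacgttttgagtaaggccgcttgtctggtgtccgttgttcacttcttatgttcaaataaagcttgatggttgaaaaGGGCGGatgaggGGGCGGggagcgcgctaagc
Zfp366: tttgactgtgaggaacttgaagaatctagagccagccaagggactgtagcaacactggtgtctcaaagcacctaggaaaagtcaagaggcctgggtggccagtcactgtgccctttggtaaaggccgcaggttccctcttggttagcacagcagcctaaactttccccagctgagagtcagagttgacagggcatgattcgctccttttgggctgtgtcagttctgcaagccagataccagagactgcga
Zfp36: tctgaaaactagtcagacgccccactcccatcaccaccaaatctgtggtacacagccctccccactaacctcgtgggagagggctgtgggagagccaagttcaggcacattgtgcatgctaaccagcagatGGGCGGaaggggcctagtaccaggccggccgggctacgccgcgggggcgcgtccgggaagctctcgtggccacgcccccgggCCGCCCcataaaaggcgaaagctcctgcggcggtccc
The promoter of Zfp786 holds 21 CpG and that of Zfp36 18, against 8 in Zfp106 and 3 in Zfp366.

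To see whether the members moved together, each gene was centred on its own mean log2 CPM and the median over the 196 members was taken in each library. This median was -0.02 in both 1w0Gy libraries and -0.02 and 0.04 in the 1w4Gy libraries. It was 0.02 and 0.04 in the 4m0Gy libraries and 0.01 and -0.04 in the 4m4Gy libraries. The libraries of the 2 irradiated groups therefore lay on both sides of 0, and the spread between the libraries of a group (SD 0.027) was of the same size as the differences between groups. Levels in these libraries also followed transcript length. The slope was taken over the 11378 protein_coding genes with at least 50 counts in each library. The centred log2 CPM rose by 0.06 per doubling of length in the second 1w4Gy library and by 0.016 and 0.043 in the 4m0Gy libraries. The slope was -0.002 in the first 1w4Gy library, -0.017 and -0.028 in 1w0Gy, and -0.044 and -0.029 in 4m4Gy. The members are long, with a median transcript of 3625 bases (1102 to 22410) against 2875 bases in the other genes. Other genes weighted to the members' lengths had library medians from -0.024 to 0.029, highest in the same library as the slope. The first 4m4Gy library departed from this order, with a member median of 0.01 where the length-weighted others stood at -0.02, and with the trend removed its member median was 0.05. The medians of the ribosomal protein genes, which are short, ran from -0.15 in the second 4m0Gy library to 0.19 in the second 1w0Gy library.

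**Figure D2:**
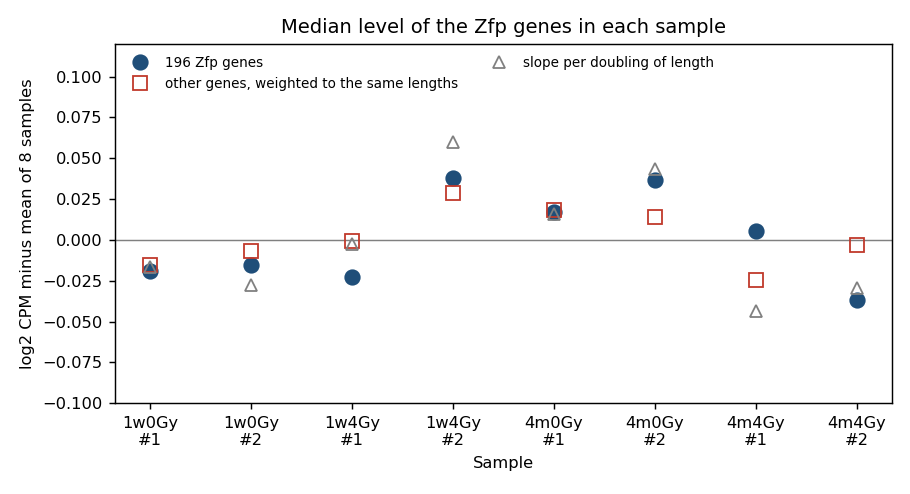
Median of log2 CPM minus each gene's mean over the 8 samples (vertical axis) in each sample (horizontal axis) for the 196 Zfp genes (filled circles) and for other genes weighted to the same lengths (open squares). Triangles give the slope of these centred values per doubling of transcript length over all protein_coding genes with at least 50 counts in each library. The Zfp median ranges from -0.04 to 0.04, and the highest value and the highest slope are both in the second 1w4Gy sample.

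The first comparison asked how neonatal irradiation changed the thyroid 8 weeks later. No member passed an adjusted p of 0.05 in 1w4Gy against 1w0Gy with edgeR's quasi-likelihood test or with DESeq2. In edgeR the background was 0.00651% of 15359 genes called higher and 0% called lower. At an unadjusted p under 0.05, 3 members were higher (Zfp366, Zfp275, and Zfp26) and 0 lower, against 3.31% and 2.37% of all genes. These counts changed when a library was left out, but the share of all genes was not counted in those fits. The members' median log2 fold change was 0.02 and 122 of 196 were higher, while the median over all genes was 0.00. Other genes weighted to the members' lengths had a median of 0.03, and with the trend with length removed the member median was 0.00 and 100 of 196 were higher. With the trend removed, 1 member (Zfp366) was higher and 3 (Zfp14, Zfp414, and Zfp574) were lower at an unadjusted p under 0.05, against 2.77% and 2.42% of all genes. The groups did not overlap in 43 members that were higher and 25 that were lower (21.9% and 12.8%), against 17.7% and 17.8% of all genes. This overlap was not counted by length, and 68.9% of the others of 4000 bases or more had a log2 fold change above 0. Members of 4000 bases or more had a median of 0.06 (59 of 85 higher), as did the 3219 others of this length. The 16 members under 2000 bases had a median of -0.01, against -0.05 in 3095 others.

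Zfp366, a corepressor described in dendritic cells, had the highest log2 fold change after neonatal irradiation. Its level was 12.9 and 13.4 CPM in 1w0Gy and 18.6 and 17.5 CPM in 1w4Gy, and the groups did not overlap. The log2 fold change was 0.46 ± 0.12 (SE), and edgeR gave an adjusted p of 0.849. At 4 months Zfp366 was 10.8 and 13.5 CPM in 4m0Gy and 11.6 and 8.87 CPM in 4m4Gy, so that these groups overlapped. The endothelial markers were also higher after neonatal irradiation. Their sum over the 5 found was 590 and 578 CPM in 1w0Gy and 692 and 705 CPM in 1w4Gy. All 5 were higher, 4 of them at an unadjusted p under 0.05, against 3.31% of all genes. The 8 adipocyte markers were all lower, 7 of them at an unadjusted p under 0.05, against 2.37% of all genes. They summed to 582 and 461 CPM in 1w0Gy and to 312 and 328 CPM in 1w4Gy. The part of either cell type in the level of Zfp366 was not tested. The other members with the highest fold changes were Zfp78 (0.33), Zfp608 (0.31), Zfp84 on the second of its identifiers (0.30), and Zfp74 (0.29). The lowest were Zfp13 (-0.36), Zfp365 (-0.26), Zfp358 (-0.26), Zfp414 (-0.24), and Zfp133 (-0.24). The adjusted p of these 9 genes was 0.875 to 0.89 in edgeR.

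The second comparison asked the same of rats irradiated at 4 months. No member was called in 4m4Gy against 4m0Gy by edgeR or by DESeq2, with a background of 0.0131% of 15253 genes called higher and 0.00656% lower in edgeR. At an unadjusted p under 0.05, 13 members were lower and 2 higher, which was 6.63% and 1.02% of the members, against 4.96% lower and 3.44% higher in all genes. The members' median log2 fold change was -0.02, as 86 of 196 were higher, and the median of all genes was 0.01. The direction again went with length. The median was -0.10 in the 85 members of 4000 bases or more (20 higher), 0.02 in the 95 of 2000 to 4000 bases, and 0.04 in the 16 shorter ones, against -0.07, 0.01, and 0.08 in the others. With the trend removed the median was 0.01, and 6 members were lower and 2, Zfp36 and Zfp133, higher at an unadjusted p under 0.05, against 3.49% and 2.88% of all genes.

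Zfp106 had the smallest p of the members at 4 months. It measured 70.5 and 70.9 CPM in 4m0Gy and 45 and 55.6 CPM in 4m4Gy, both irradiated libraries being lower. The log2 fold change was -0.49 ± 0.10 (SE) and the adjusted p was 0.29 in edgeR, and with the trend with length removed the change was -0.40. Zfp106 passed the threshold in edgeR without a filter on low counts (adjusted p = 0.0183) but not in the other alternatives without a replicate block, where the adjusted p reached 0.639. Zfp654 was 14.5 and 14.0 CPM in 4m0Gy and 9.56 and 10.6 CPM in 4m4Gy, with a log2 fold change of -0.50 ± 0.15 (SE) and an adjusted p of 0.436 in edgeR. Zfp507 (-0.43), Zfp606 (-0.41), and Zfp169 (-0.40) followed, and the groups did not overlap in any of these 5 genes. Over all members the groups did not overlap in 59 that were lower and 25 that were higher (30.1% and 12.8%), against 18.7% and 20.9% of all genes. This overlap was not counted by length, and only 27.3% of the others of 4000 bases or more had a log2 fold change above 0. On the high side stood Zfp133, whose level was 12.2 and 12.3 CPM in 4m0Gy and 15.6 and 15.5 CPM in 4m4Gy. Its log2 fold change was 0.34 ± 0.13 (SE) with an adjusted p of 0.546 in edgeR. Zfp90 (0.31), Zfp184 (0.29), and Zfp189 (0.26) also had high values, but the sign for Zfp184 was negative when counts were summed over transcripts or the longest transcript was used (-0.03 and -0.27).

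Zfp36 was the most abundant member and 1 of the 2 members higher at an unadjusted p under 0.05 at 4 months. It was 45.7 and 47.2 CPM in 4m0Gy and 60.7 and 52.9 CPM in 4m4Gy, without overlap. The log2 fold change was 0.29 ± 0.09 (SE) with an adjusted p of 0.45 in edgeR. In the neonatal groups it was 42.5 and 52.6 CPM in 1w0Gy and 49.0 and 52.2 CPM in 1w4Gy, which overlapped, with a log2 fold change of 0.09 ± 0.12 (SE). Zfp36 is itself an early response gene, and the median log2 fold change of the other immediate early genes was -0.07 after neonatal irradiation and 0.14 at 4 months. Of these others, 1 was higher and 2 lower after neonatal irradiation at an unadjusted p under 0.05, against 3.31% and 2.37% of all genes. For 4 months the counts were 2 and 1, against 3.44% and 4.96%. Smallest in p were Ccn1 (-1.03) and Egr1 (-0.49) after neonatal irradiation. Klf2 (0.31) and Myc (-0.38) were smallest in p at 4 months and had opposite signs. Egr1 was 25 and 20.9 CPM in 1w0Gy, 16.7 and 15.9 in 1w4Gy, and in the 4m groups 21.9 and 25.5 in 4m0Gy and 27.5 and 27.9 in 4m4Gy. Zfp36l1 and Zfp36l2, relatives of Zfp36 that were not members, had log2 fold changes of 0.02 and -0.05 after neonatal irradiation and of 0.09 and -0.08 at 4 months.

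**Figure D3:**
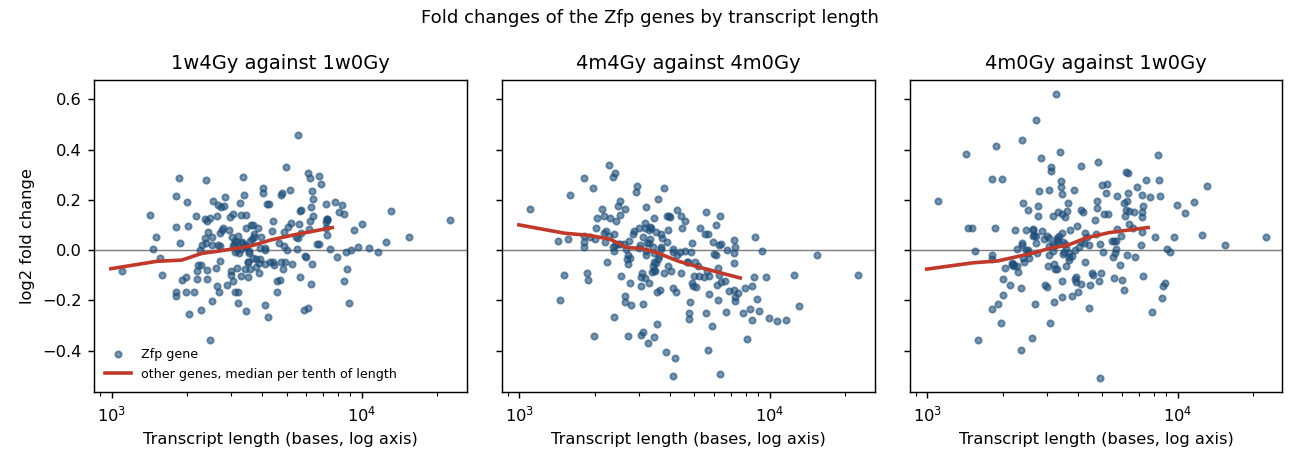
Log2 fold change of each of the 196 Zfp genes (points, vertical axis) against the length of its transcript in bases (horizontal axis, log scale) in 3 comparisons, with the median of the other genes in each of 10 classes of length (line). The points are spread around the line, which rises with length in 1w4Gy against 1w0Gy and in 4m0Gy against 1w0Gy and falls in 4m4Gy against 4m0Gy.

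Whether the response to irradiation differed between the ages was tested with the interaction on all 8 samples, as the neonatal minus the 4-month log2 fold change. No member and no other gene was called in edgeR (background 0% higher and 0% lower of 15684 genes), and DESeq2 called no member. At an unadjusted p under 0.05, 16 members had a higher response at the neonatal age and 3 a lower one (Zfp133, Zfp358, and Zfp414), which was 8.16% and 1.53% of the members against 5.71% and 3.4% of all genes. The members' median difference was 0.07, that of length-weighted others 0.05, and with the trend removed the member median was -0.0046 and the counts were 5 (Zfp106, Zfp217, Zfp326, Zfp366, and Zfp606) and 4 (Zfp133, Zfp281, Zfp414, and Zfp777), against 3.88% and 2.7% of all genes. The members with the smallest p were Zfp609, Zfp106, and Zfp133. The difference was 0.42 ± 0.11 (SE) for Zfp609, a partner of the cohesin loader, 0.73 ± 0.19 (SE) for Zfp106, and -0.58 ± 0.18 (SE) for Zfp133, with adjusted p of 0.407, 0.409, and 0.425 in edgeR. Zfp609 measured 42.9 and 45.2 CPM in 1w0Gy, 48.7 and 48.5 in 1w4Gy, and in the 4m groups 54.5 and 52.4 in 4m0Gy and 44.8 and 43.4 in 4m4Gy. Thus the 2 irradiated groups lay on opposite sides of their controls, and with the trend with length removed the difference for this gene of 8451 bases was 0.21.

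Irradiation over both ages, with 4 libraries against 4 and age as a covariate, gave no call among the members in edgeR or DESeq2 (background in edgeR 0.0128% higher and 0% lower). Zfp36 was higher (0.19) and Zfp395 and Zfp574 were lower (-0.22 and -0.13) at an unadjusted p under 0.05, against 2.49% higher and 1.4% lower in all genes. With the trend removed, 1 member was higher (Zfp36) and 1 lower (Zfp395), against 2.9% and 1.61%. All irradiated libraries lay above all sham libraries in 1 member (Zfp346) and below them in 2 (Zfp423 and Zfp770), against 0.995% and 0.555% of all genes. The member median was -0.01, and the members' fold changes lay between -0.27 (Zfp423) and 0.21.

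The effect of age was examined in the sham groups and, with the other 4 libraries, in the irradiated groups. In 4m0Gy against 1w0Gy no member was called by edgeR or DESeq2, where 0.521% of 15364 genes were called higher and 0.54% lower in edgeR. Members with an unadjusted p under 0.05 were 19 higher (9.69%) and 3 lower (1.53%, Zfp521, Zfp335, and Zfp330) at 4m, against 8.91% and 8.88% of all genes. The median log2 fold change was 0.04 against 0.03 in length-weighted others, and 122 of 196 were higher. With the trend removed the median was 0.02 and the counts were 13 and 4 (Zfp521, Zfp335, Zfp281, and Zfp142), against 8.38% and 7.77%. The groups did not overlap in 61 members that were higher and 24 that were lower (31.1% and 12.2%), against 25.4% and 24.8% of all genes. This overlap was not counted by length, and 65.9% of the others of 4000 bases or more had a log2 fold change above 0. The highest log2 fold changes were those of Zfp458 (0.62), Zfp786 (0.52), Zfp870 (0.44), Zfp867 (0.41), and Zfp667 (0.39). The lowest were those of Zfp521 (-0.51), Zfp184 (-0.40), Zfp691 (-0.36), Zfp9 (-0.35), and Zfp954 (-0.29). Zfp458, among the least abundant members, was 3.35 and 3.30 CPM in 1w0Gy and 5.56 and 4.69 CPM in 4m0Gy, but 4.23 and 3.34 CPM in 1w4Gy and 4.45 and 3.5 CPM in 4m4Gy, where the ages overlapped.

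In 4m4Gy against 1w4Gy no member was called by edgeR, where 0.517% of 15275 genes were called higher and 0.38% lower, and DESeq2 called Zfp366. The members with a higher level at an unadjusted p under 0.05 were 8 (4.08%) and those with a lower level 6 (3.06%), against 7.31% and 7.53% of all genes. These counts changed when a library was left out, but the share of all genes was not counted in those fits. With all libraries of the 2 groups and the trend removed, the counts were 10 and 3 (Zfp366, Zfp521, and Zfp169), against 7.38% and 6.89%. The groups did not overlap in 41 members that were higher and 46 that were lower (20.9% and 23.5%), against 24.1% and 23.7% of all genes. Zfp366 had the lowest log2 fold change, -0.81 ± 0.16 (SE) with an adjusted p of 0.0726 in edgeR, from the 4 values given above. Of the 22 members with an unadjusted p under 0.05 in the sham-irradiated groups, 14 (63.6%) had the same direction in the irradiated groups, and 3 of these (Zfp521, Zfp622, and Zfp786) had an unadjusted p under 0.05 in both. Zfp106 had an unadjusted p under 0.05 in both with opposite directions, at 0.31 in the sham-irradiated and -0.42 in the irradiated groups. Of the 2696 genes of all with an unadjusted p under 0.05 in the sham-irradiated groups, 71.8% had the same direction. In 734 of the 2696 the direction was the same and the unadjusted p was under 0.05 in both. The 2 comparisons share no sample.

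When age was fitted over both doses on all 8 samples, a comparison added after the data had been seen, 3 members passed an adjusted p of 0.05 in edgeR. Of 15684 genes, 1.87% were called higher and 2.39% lower at 4m. The members with an unadjusted p under 0.05 were 12 higher (6.12%) and 5 lower (2.55%, Zfp521, Zfp366, Zfp9, Zfp41, and Zfp17), against 9.91% and 10.5% of all genes. After removal of the trend they were 14 and the same 5, against 11.3% and 10.7%. All 4m libraries lay above all 1w libraries in 8 members and below them in 4 (Zfp521, Zfp9, Zfp41, and Zfp865), against 6.18% and 6.61% of all genes. DESeq2 called the same 3 members, Zfp622 and Zfp786 higher and Zfp521 lower at 4m. Zfp622, the ribosome maturation factor, was 45 and 37.7 CPM in 1w0Gy, 41.5 and 43.3 in 1w4Gy, and in the 4m groups 53.4 and 50.7 in 4m0Gy and 51.2 and 56.8 in 4m4Gy. All 4m values were above all 1w values. The log2 fold change was 0.34 ± 0.07 (SE), with an adjusted p of 0.0215 in edgeR. Zfp786 was 5.72 and 6.43 CPM in 1w0Gy, 5.60 and 6.18 in 1w4Gy, and in the 4m groups 8.85 and 8.56 in 4m0Gy and 8.56 and 8.22 in 4m4Gy. It rose by a log2 fold change of 0.52 ± 0.12 (SE) with an adjusted p of 0.0301 in edgeR, again without overlap. Zfp521, the mesenchymal cofactor, was 9.17 and 9.26 CPM in 1w0Gy, 10.1 and 9.27 in 1w4Gy, and in the 4m groups 6.27 and 6.69 in 4m0Gy and 7.04 and 6.22 in 4m4Gy. Its log2 fold change was -0.53 ± 0.11 (SE) with an adjusted p of 0.0237 in edgeR, and no 4m value reached the lowest 1w value. The fibroblast markers moved the same way: all 6 were lower at 4m, 4 of them called, with a median log2 fold change of -1.24, and all 8 adipocyte markers were lower with a median of -0.87. Their part in the level of Zfp521 was not tested. In the separate comparisons of age, which use the same libraries, none of the 3 was called.

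The calls depended on which library was left out, and the share of all genes called in those fits is not given here. All 3 were called, together with Zfp574, without the second 1w4Gy library. None of the 3 was called in edgeR without the second 1w0Gy, the first 1w4Gy, the first 4m0Gy, or the second 4m4Gy library, and only Zfp622 was called without the first 1w0Gy or the first 4m4Gy library. Without the second 4m0Gy library, Zfp521 and Zfp622 were called, Zfp786 was not, and Zfp366 was. The adjusted p over these fits without 1 library was 0.0338 to 0.0789 for Zfp521, 0.0182 to 0.0734 for Zfp622, and 0.0381 to 0.0802 for Zfp786, and the log2 fold changes stayed between -0.56 and -0.49, 0.30 and 0.40, and 0.48 and 0.55.

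**Figure D4:**
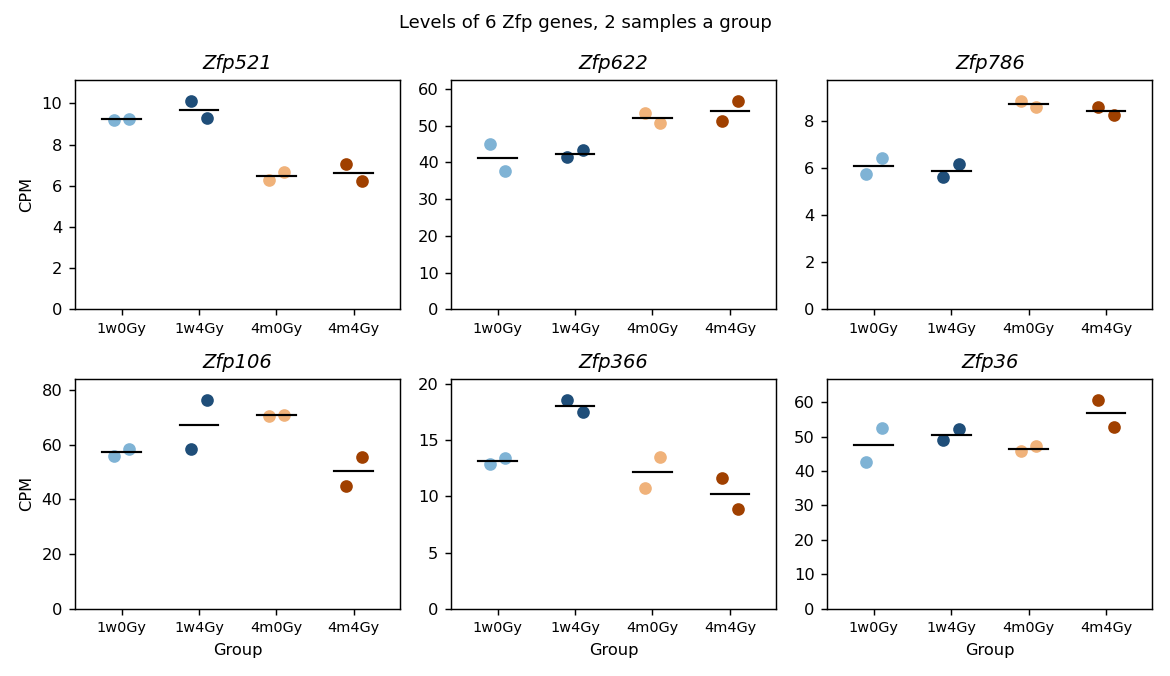
Level in CPM (vertical axis, from 0) of 6 Zfp genes in the 4 groups (horizontal axis), with 1 point a sample and a line at the group mean of 2 samples. Zfp622 and Zfp786 lie higher and Zfp521 lower in both 4m groups than in both 1w groups, while Zfp106 is lowest in 4m4Gy and Zfp366 highest in 1w4Gy.

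Grouped by what the proteins do, the members gave the following values. The 8 members that act on RNA or translation, among them Zfp36, Zfp106, Zfp326, and Zfp622, all had log2 fold changes above 0 after neonatal irradiation. These ran from 0.004 (Zfp326) to 0.24 (Zfp106), with a median of 0.06. Of all genes 50% were higher, and of length-weighted others 58%. At 4 months 3 of the 8 were higher, with a median of -0.10, against 51.9% of all genes and 42.7% of length-weighted others. The 22 members known as transcription factors or cofactors without a KRAB domain, among them Zfp91, Zfp217, Zfp423, Zfp521, and Zfp609, had medians of 0.06 (13 higher) and -0.11 (7 higher). No member of either group was called in edgeR after irradiation at either age. In the neonatal comparison 0 of the 8 and 0 of the 22 had an unadjusted p under 0.05, against 3.31% of all genes higher and 2.37% lower. At 4 months, Zfp36 was higher and Zfp106 lower among the 8, and Zfp609, Zfp687, and Zfp292 were lower among the 22, against 3.44% higher and 4.96% lower. After removal of the trend the medians were 0.06 and -0.05 in the 8, and -0.01 and -0.06 in the 22.

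Trim28, the partner of KRAB domains, was 159 and 163 CPM in 1w0Gy, 139 and 149 in 1w4Gy, and in the 4m groups 152 and 141 in 4m0Gy and 148 and 153 in 4m4Gy. Its log2 fold change was -0.16 ± 0.09 (SE) after neonatal irradiation and 0.03 ± 0.07 (SE) at 4 months, with adjusted p of 0.889 and 0.938 in edgeR. Of the 35 genes tested from the KRAB corepressor machinery, 0 were called in edgeR in any comparison. At an unadjusted p under 0.05, 1 was higher and 0 lower after neonatal irradiation (3.31% and 2.37% of all genes), 1 higher and 5 lower at 4 months (3.44% and 4.96%), and 8 and 0 in the interaction (5.71% and 3.4%). With age in the sham-irradiated groups 6 of the 35 were higher and 2 lower (8.91% and 8.88% of all genes). The list's median was 0.05 after neonatal irradiation, -0.05 at 4 months, and 0.11 in the interaction, and with the trend with length removed it was 0.02, -0.01, and 0.00. Examples are the HP1 protein Cbx5 and the DNA methyltransferase Dnmt3a at 4 months, with log2 fold changes of -0.41 ± 0.12 and -0.57 ± 0.16 (SE), both at an adjusted p of 0.403 in edgeR. Of the 19 genes of CCCH-directed mRNA decay, 0 were called in any comparison in edgeR, with 2 higher and 0 lower after neonatal irradiation and 0 and 3 at 4 months at an unadjusted p under 0.05, against the same shares of all genes. In the interaction 4 were higher and 0 lower (5.71% and 3.4%), and with age in the irradiated groups 1 was higher and 5 lower (7.31% and 7.53%). With age in the sham-irradiated groups 3 were higher and 2 lower (8.91% and 8.88%). The median of this list was 0.03 after neonatal irradiation, -0.06 at 4 months, and 0.09 in the interaction. With the trend with length removed it was 0.02, -0.06, and 0.03. The exonuclease Xrn1 had log2 fold changes of 0.28 ± 0.12 after neonatal irradiation and -0.32 ± 0.12 at 4 months (SE), with adjusted p of 0.875 and 0.511 in edgeR.

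The members lay on 21 chromosomes of GRCr8, with 46 on chromosome 1 and 16 each on chromosomes 4 and 10, among the 187 found there by symbol. In the order of the genes 47 members stood in 18 runs of neighbours. The longest runs held 5 genes each, Zfp786, Zfp398, Zfp282, Zfp212, and Zfp956 on chromosome 4, and Zfp560, Zfp26, Zfp426, Zfp266, and Zfp846 on chromosome 8. Their median log2 fold changes were 0.09 and 0.06 after neonatal irradiation, -0.06 and -0.06 at 4 months, and 0.22 and 0.16 with age in the sham-irradiated groups. Adjacent members did not resemble each other more in every comparison. The median absolute difference in log2 fold change was 0.16 in the 29 adjacent pairs and 0.13 in all 17391 pairs after neonatal irradiation, 0.11 and 0.15 at 4 months, and 0.13 and 0.16 with age in sham-irradiated rats. Reads of near-identical copies can be split between genes by counting, so the values of neighbouring duplicates and of the Zfp84 identifiers are uncertain.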

How the data were processed

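Thyroid RNA from 8 rats was sequenced in paired reads from a directional library. The authors mapped the reads with HISAT2 2.2.1 and counted them with featureCounts 2.0.0, per the submitters' processing notes. The genome build and the use of strand in counting are not given in the sources used here. The deposited raw counts of 54991 transcripts were used for the tests, and the deposited TPM, scaled by transcript length, for levels between genes. The authors' 8 RPKM columns were not used.

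For each gene the transcript with the highest summed count was taken. Of the members, 64 have 1 transcript, and in 92 of the other 132 the second transcript is within 5% of the first. All 196 passed filterByExpr of edgeR 4.0.16 (TMM, robust quasi-likelihood test, Benjamini-Hochberg over all genes tested, call at an adjusted p under 0.05) in R 4.3.3. Pairs of groups were fitted on their own 4 samples, other comparisons on all 8. The SE of an edgeR log2 fold change was taken as its absolute value divided by the square root of the test's F statistic. Length-weighted medians used 10 classes of length, and the trend with length was removed with a loess span of 0.5 on genes of at least 8 CPM. Lists were described by counts and medians. Overlap of groups was counted on CPM in every comparison, without weighting to length or removal of the trend. Alternatives included DESeq2 1.42.0, other scalings and filters, log2(TPM + 1), and leaving out each sample. The code was tested on simulated counts. The rats were separate animals, and the p-values measure the spread between 2 rats a group.

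Named were called members, the 5 highest and 5 lowest log2 fold changes for irradiation at each age and for age in sham-irradiated rats, the 5 highest in TPM, those next to the count minimum, and examples of lists by smallest p. Other names were chosen after their values were seen. KRAB domains of members were not read here. The members and lists were chosen with earlier results of these data known.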

Additional observations from a re-analysis of the deposited data

How the results depend on the processing

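Of 263 alternatives for the counts of calls and the medians, 236 stayed close to the reported value and 27 moved. Of 850 for the single genes and for the counts of members at an unadjusted p under 0.05, 771 stayed. The 58 that moved were all such counts. Among the values of single genes, 2 turned in sign, 2 gained and 17 lost the call. These 17 were all with age over both doses and 1 sample left out. Zfp184 at 4 months was -0.032 with counts summed over transcripts and -0.27 with the longest transcript. Without a filter on low counts, edgeR called 1 member at 4 months (Zfp106), 2 with age in sham-irradiated rats (Zfp106 and Zfp612), and 1 with age in irradiated rats (Zfp366), where DESeq2 also called 1. With all Zfp genes that pass the filter, 1 was called there, Zfp536, which is no member. For age over both doses, 5 members were called with the trend with length removed (with Zfp574 and Zfp827 added). Without the filter, with DESeq2, and with the trend removed, the share of all genes called is not given here. Among members with at least 100 counts in each library, 1 was called, Zfp622. This alternative shortened the list of members without a new fit, and Zfp521 and Zfp786 left the list with 96 and 90 counts in their lowest library. With log2(TPM + 1), the median was -0.061 at 4 months, -0.070 with age in irradiated rats, and 0.108 in the interaction. With the trend removed, the last 2 medians were 0.014 and -0.0046, since the trend itself was taken out. In the other cases the cause was not tested.

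With 1 sample left out, the lone sample of its group is assumed to vary like the others. Members called then ranged from 0 to 1 with age in sham-irradiated rats (Zfp612 without the second 4m0Gy sample), from 0 to 7 with age in irradiated rats (7 without the first 1w4Gy sample, and Zfp17 and Zfp366 without the second), and from 0 to 4 with age over both doses. The medians ranged from -0.047 to -0.019 at 4 months (lowest without the first 4m4Gy sample), from -0.069 to 0.013 with age in irradiated rats (without the first and the second 1w4Gy sample), and from 0.026 to 0.087 in the interaction (lowest without the second 1w4Gy sample). After neonatal irradiation the median was 0.0026 to 0.048 (without the second and the first 1w4Gy sample). Members at an unadjusted p under 0.05 also changed in number in all comparisons, but the share of all genes was not counted in these fits. Whether the replicate numbers pair the samples was not tested. The correlations between groups of the first samples' deviations from their group means were -0.252 to 0.237. With a replicate block 1 member (Zfp106, adjusted p = 0.036 in edgeR) and 59 genes in all were called at 4 months, and 4 members (Zfp106, Zfp366, Zfp622, and Zfp703) and 734 genes with age in irradiated rats. Without robust estimation, an alternative added after the data were seen, edgeR called 0 genes of all after irradiation at either age (1 and 3 with it), 111 in place of 163 with age in sham-irradiated rats, 70 in place of 137 with age in irradiated rats, and 1 in place of 2 with irradiation over both ages. The same 3 members were called with age over both doses and 0 in the other comparisons.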

Other observations

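Other zinc finger families were measured in the same libraries. Of the 17 Klf genes, which encode Krüppel-like factors with C2H2 fingers, 14 were tested after neonatal irradiation, and 11 were higher with a median log2 fold change of 0.31, or 0.30 with the trend with length removed. At an unadjusted p under 0.05, 7 were higher and 0 lower (3.31% and 2.37% of all genes), and 0 were called in edgeR. With age in sham-irradiated rats 6 of the 14 were higher and 0 lower (8.91% and 8.88%). Klf9, a target of glucocorticoid and thyroid hormone receptors, had a log2 fold change of 0.52 ± 0.08 (SE) with an adjusted p of 0.395 in edgeR, and Klf7 one of 0.40 ± 0.11 (SE) with an adjusted p of 0.849. At 4 months the Klf median was 0.09, with 1 gene higher at an unadjusted p under 0.05 (3.44%). The 35 Zbtb genes tested had medians of 0.02 after neonatal irradiation and -0.12 at 4 months. The 16 Zscan and Zkscan genes had -0.02 and -0.02, and the 6 Znf genes 0.04 and -0.06. With the trend removed, the medians were -0.05 and -0.07 for Zbtb, -0.05 and -0.01 for Zscan and Zkscan, and 0.01 and -0.02 for Znf. In these families 0 genes were called in edgeR in either comparison. The 10 cell cycle genes had medians of 0.08 and 0.38, and their summed level was 93.0 to 125 CPM.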
